A study of Mus musculus with 8 samples.

Results

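The respiratory chain subunits encoded in the nucleus were compared between mouse chondrocytes that overexpressed the zinc transporter ZIP8 and control cells. Genes were chosen by symbol (Nduf followed by a, b, c, s or v and a number, Sdha to Sdhd, names starting with Uqcr, Cox4 to Cox8 and Atp5, without pseudogenes), and 77 of 22180 measured genes met the rule, which used no measured value. They comprised 32 genes of complex I, 4 of complex II, 7 of complex III, 17 of complex IV and 17 of complex V, and all 77 were tested, since no filter on low values was applied. The cells were primary articular chondrocytes of wild-type ICR mice aged 5 days, kept as a monolayer. On 4 arrays they had received the control adenovirus Ad-null and on 4 arrays Ad-Zip8, an adenovirus that carries Zip8 (gene Slc39a8). Both groups were thus infected, and total RNA was taken 24 h later in both. The labels call the arrays of a group biological replicates but do not tell separate litters, animals or cell pools apart, so all tests rest on the spread among these cultures.

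The respiratory chain passes electrons from NADH and succinate to oxygen in the inner mitochondrial membrane. Complex I (NADH dehydrogenase) and complex II (succinate dehydrogenase) feed electrons to ubiquinone, complex III hands them to cytochrome c, and complex IV (cytochrome c oxidase) reduces oxygen, while complex V (ATP synthase) uses the resulting proton gradient to make ATP. A few core subunits are encoded by mitochondrial DNA and most others by the nucleus. Articular cartilage has no blood vessels, and its chondrocytes are known to rely largely on glycolysis.

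Values are log2 expression values, and a change is the Ad-Zip8 mean minus the Ad-null mean. A gene was called at p under 0.05 by limma, adjusted with the Benjamini-Hochberg method over all 22180 genes. Slc39a8 stood at 6.20 ± 0.07 with Ad-null and 11.13 ± 0.15 with Ad-Zip8 (SD, n = 4 each), in keeping with the labels on every array. Arrays correlated at 0.991 to 0.993 within groups and at 0.979 to 0.986 between them. The 8 chondrocyte markers, Col2a1, Acan and Sox9 among them, had means from 11.9 to 13.3, near the top of the scale, and 6 of them fell with Ad-Zip8 (median log2 change -0.40). In RNA from whole cultures, fewer cells of a type and less RNA per cell cannot be told apart.

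Of the 77 genes, 1 fell (Cox6a2) and none rose. Over all genes tested, 10.6% were called, 5.12% lower and 5.48% higher, beside 1.3% and 0% of the 77 genes; whether the shares differ was not tested. At an unadjusted p under 0.05 in limma, 12 of the 77 (15.6%) were lower and 0 higher, against 12.4% and 10.3% of all genes. The estimates were small and leaned downward. The log2 change was below 0 for 56 of the 77 genes (72.7%), against 54.1% of all genes, and its median was -0.06 against -0.02. Among genes with means at or above the array medians, 74% of 73 respiratory chain genes and 58.6% of 13282 genes lay below 0. In limma 12 of these 73 and 2338 of these 13282 were lower at an unadjusted p under 0.05, and 0 and 1759 were higher.

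The intervals bound how large a change these arrays could have missed. The 95% confidence interval of the change, not adjusted for the number of genes, lay within 1.5-fold in either direction for 74 of the 77 genes (96.1%), against 84.9% of all genes. The 3 genes outside were Cox6a2 (-0.67 to -0.19 on the log2 scale), Atp5g1 (-0.70 to 0.16) and Cox7c (-0.32 to 0.59). In 14 of the 77 genes all Ad-Zip8 arrays lay below all Ad-null arrays (18.2%), against 9.74% of all genes. In 0 of the 77 did they all lie above, against 7.89% of all genes, and limma called none of the 77 higher at an unadjusted p under 0.05. Among genes with means at or above the array medians, all Ad-Zip8 arrays lay lower in 14 of 73 and 1997 of 13282. They all lay higher in 0 of those 73 and 1489 of those 13282.

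The count of 1 lower gene moved with the fit. With a variance trend, in which limma lets the expected spread depend on the level, 7 of 77 were lower (9.09%, against 7.31% of all genes). Without dim genes, the 11090 of lower mean, 7 of the 71 left were lower (9.86%, against 14.7%). With arrays centred on 75th percentiles it was 2 (2.6%, against 5.44%), and with quantile normalization repeated 2 (2.6%, against 5.23%). It stayed at 1 (1.3%) with a replicate block that pairs same-numbered arrays (against 4.77% of all genes). It was also 1 with arrays centred on medians (against 5.55% of all genes) and with the mean of probe sets (against 4.99%). Without Ad-null replicate 1, 2, 3 or 4 it was 1, 1, 2 and 1 (3.25%, 3.5%, 4.16% and 3.53% of all genes), and without Ad-Zip8 replicate 1, 2, 3 or 4 it was 0 each time (3.19%, 3.73%, 3.94% and 3.62%). The count of higher genes was 0 in each of these 15 fits, where limma called 6.38%, 11.7%, 5.37%, 5.59%, 5.76%, 5.05% and 5.39% of all genes higher in the first 7, in the order given here, and 4.61%, 4.6%, 4.43%, 4.37%, 4.17%, 4.54%, 5.05% and 4.49% with 1 array left out.

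**Figure D1:**
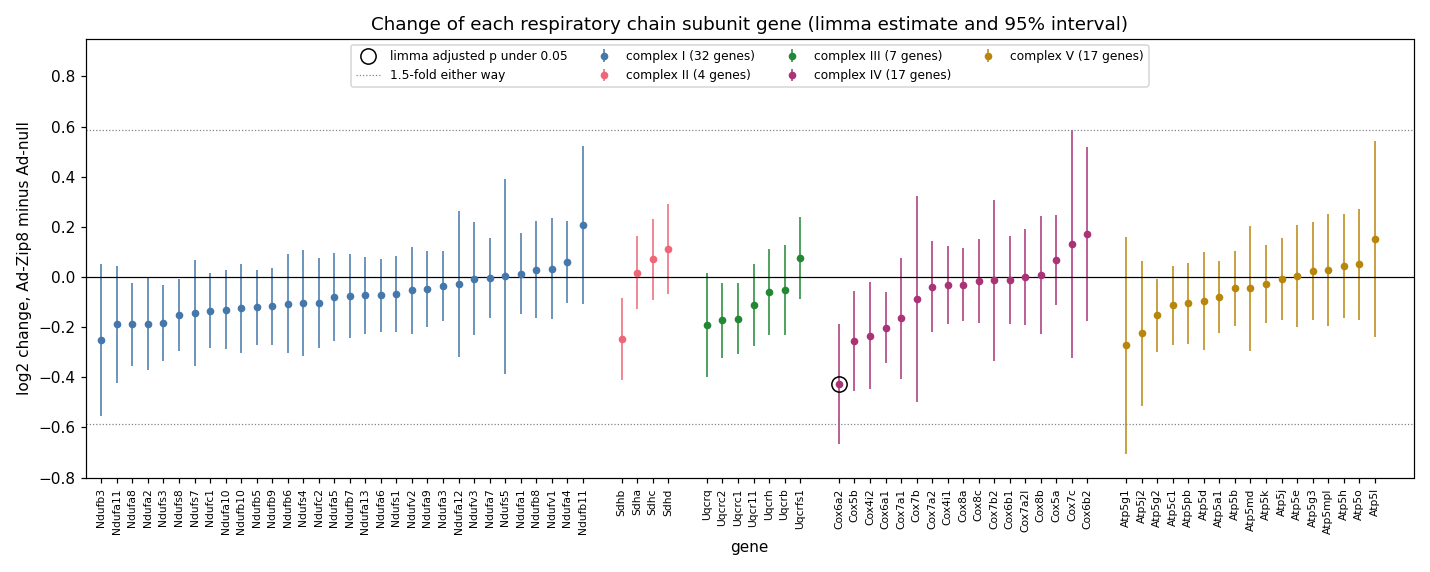
Log2 change (Ad-Zip8 minus Ad-null) of each of the 77 genes, ordered by size within complexes I to V; bars are 95% confidence intervals from limma (n = 4 arrays per group), and dotted lines mark 1.5-fold. Most intervals cross 0, all but 3 stay within the dotted lines, and the circled gene, Cox6a2 at -0.43, is the 1 gene called.

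**Figure D2:**
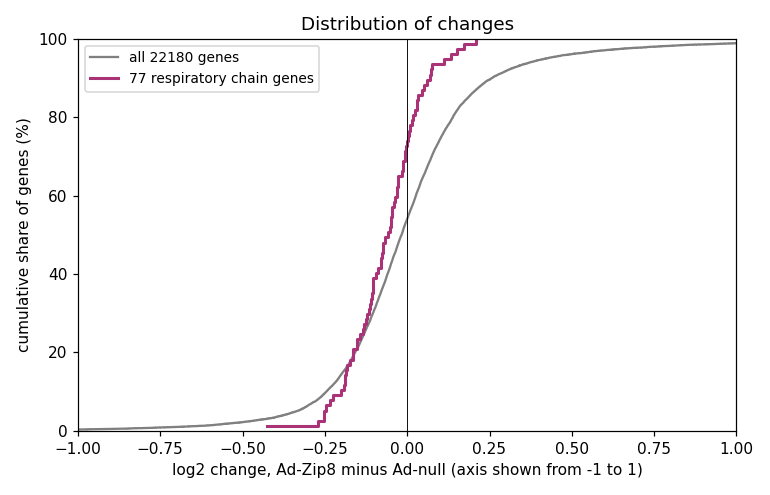
Cumulative share of genes (percent) against log2 change for all 22180 genes (grey) and the 77 respiratory chain genes (purple). The purple curve is steeper, spans -0.43 to 0.21, and reaches 0 at 72.7% where the grey curve is at 54.1%.

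Nuclear respiratory genes are known targets of the transcription factors NRF-1 and GABP, whose sites often lie just before the start of transcription. RefSeq promoters (GRCm38.p6) were matched by symbol for 64 of the 77 genes, with 69 windows, and the 250 bases before each start were searched on both strands. The other 13 genes had no window and were not searched. Among them were Cox6a2, the 1 called gene, and Cox4i2, Uqcrc2 and Ndufa2. Each of these named genes was lower at an unadjusted p under 0.05 in limma. The NRF-1 core GCATGCGC was found in 8 of the 64 genes (12.5%; 11.6% of their windows), against 2.26% of 32851 windows of all genes. An ETS motif of the kind GABP reads, CCGGAAG, was found in 12 genes (18.8%; 17.4% of windows), against 6.91%. AAGATGGC for YY1 was found in Atp5j and TCAAGGTCA for estrogen-related receptors in Atp5g3, against 1.56% and 0.387% of all windows. A match describes letters, not a bound site.

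The 8 genes with the NRF-1 core were Sdhb, Cox6a1, Ndufa8, Atp5g2, Ndufa11, Ndufa6, Atp5k and Atp5l. Their median log2 change was -0.17 (range -0.25 to 0.15), against -0.05 for the 56 matched genes in which those letters were not found. For the ETS motif the order was the other way, with a median of -0.03 for the 12 genes with it (2 lower at an unadjusted p under 0.05) and -0.05 for the 52 without (6 lower). Neither difference was tested. Among the genes with the NRF-1 core, Ndufa8, Ndufa11 and Atp5g2 had another, dimmer probe set, with changes of 0.07, 0.01 and -0.11. These medians were not computed with the mean of probe sets. None of the 8 genes with the NRF-1 core passed limma's adjusted test. In limma 4 of the 8 and 4 of the 56 were lower at an unadjusted p under 0.05, where 12.4% of all genes were. Those 4 of the 8 were Sdhb, Cox6a1, Ndufa8 and Atp5g2. Their promoters are shown because they join the motif to the lower values given further on, a choice made after the values were seen. Each line gives the 250 bases before the start, 5′ to 3′ in the direction of the gene, with the NRF-1 core in capitals (in Cox6a1 and Atp5g2 a pair of overlapping matches, 1 on each strand). Cox6a1 also has in capitals the ETS motif, which reads CTTCCGG on this strand. Sdhb is at chr4:140961021-140961270 (plus strand), Cox6a1 at chr5:115348959-115349208 (minus), Ndufa8 at chr2:36049339-36049588 (minus) and Atp5g2 at chr15:102671048-102671297 (minus).
Sdhb: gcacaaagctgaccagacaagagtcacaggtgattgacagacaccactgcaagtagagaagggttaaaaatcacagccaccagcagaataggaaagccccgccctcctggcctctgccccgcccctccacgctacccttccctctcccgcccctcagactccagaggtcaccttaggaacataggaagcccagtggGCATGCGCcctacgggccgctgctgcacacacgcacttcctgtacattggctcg
Cox6a1: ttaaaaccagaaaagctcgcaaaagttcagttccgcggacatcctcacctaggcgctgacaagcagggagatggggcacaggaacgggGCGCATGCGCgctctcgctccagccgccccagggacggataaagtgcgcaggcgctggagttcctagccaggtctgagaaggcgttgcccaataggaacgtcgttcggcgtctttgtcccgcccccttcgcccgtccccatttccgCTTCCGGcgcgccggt
Ndufa8: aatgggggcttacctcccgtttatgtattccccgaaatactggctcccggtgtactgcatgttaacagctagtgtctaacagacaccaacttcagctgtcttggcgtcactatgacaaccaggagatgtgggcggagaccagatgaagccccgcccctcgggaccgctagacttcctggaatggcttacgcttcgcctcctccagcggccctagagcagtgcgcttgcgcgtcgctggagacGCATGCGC
Atp5g2: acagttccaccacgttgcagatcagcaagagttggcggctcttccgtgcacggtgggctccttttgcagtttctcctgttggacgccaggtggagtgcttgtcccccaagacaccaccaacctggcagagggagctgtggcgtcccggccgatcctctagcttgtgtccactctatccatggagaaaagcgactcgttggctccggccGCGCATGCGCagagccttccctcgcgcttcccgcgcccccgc

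No gene of complex I, the largest group, passed limma's test. At an unadjusted p under 0.05 in limma 4 of its 32 genes were lower, where 12.4% of all genes were. Of its 32 genes 26 (81.2%) had a log2 change below 0, against 54.1% of all genes. The median was -0.08, and all 32 intervals lay within 1.5-fold. The 6 measured core genes, Ndufv1, Ndufv2, Ndufs1, Ndufs3, Ndufs7 and Ndufs8, encode subunits of the part that carries electrons from NADH to ubiquinone. Ndufv1, the subunit that binds NADH, had a change of 0.03 (95% interval -0.17 to 0.23), and Ndufs1, the large iron-sulfur subunit, one of -0.07 (-0.22 to 0.09). For both the groups overlapped.

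Ndufs3, a core subunit of the arm that reaches into the matrix, had the lowest adjusted p of complex I. Its Ad-null values were 6.56, 6.45, 6.41 and 6.41, and its Ad-Zip8 values were 6.28, 6.24, 6.26 and 6.31. The groups did not overlap, but the change of -0.18 (SE 0.07) did not pass (adjusted p = 0.130; 0.0389 to 0.271 over the alternatives). Passing values came without dim genes (adjusted p = 0.0389) and with quantile normalization repeated (0.0454). Ndufs8, which holds iron-sulfur clusters near the ubiquinone site, read 9.45, 9.40, 9.36 and 9.42 with Ad-null and 9.30, 9.28, 9.24 and 9.22 with Ad-Zip8, again without overlap (change -0.15, adjusted p = 0.192).

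The 26 accessory genes of complex I, Ndufa4 counted among them by its symbol, surround the core and serve its assembly and stability, and 21 of them lay below 0. The lowest was Ndufb3, with 5.98 to 6.09 under Ad-null and 5.32, 5.85, 5.96 and 5.96 under Ad-Zip8 (change -0.25, adjusted p = 0.318). Ad-Zip8 replicate 1 stood well below the other arrays, and without it the change was -0.10. The highest was Ndufb11, with 6.07, 6.25, 5.88 and 5.86 under Ad-null and 5.83, 6.43, 6.29 and 6.35 under Ad-Zip8, overlapping groups and a change of 0.21 (adjusted p = 0.444). Ndufa8, whose promoter is shown above, read 10.09, 9.95, 9.83 and 9.97 against 9.73, 9.81, 9.76 and 9.77 (change -0.19, SE 0.07, adjusted p = 0.160). No Ad-Zip8 array reached the lowest Ad-null array of Ndufa8, but its other probe set had a change of 0.07.

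Complex II links the citrate cycle to the chain and is built from 4 nuclear genes alone, all of which were measured. Sdhb encodes the iron-sulfur subunit. Its Ad-null values were 8.70, 8.72, 8.51 and 8.65, and its Ad-Zip8 values were 8.37, 8.47, 8.39 and 8.36. Every Ad-Zip8 array lay below every Ad-null array, and the 1.19-fold lower mean (log2 change -0.25, SE 0.07) fell short of the threshold (adjusted p = 0.0634). Sdhb passed under the variance trend (adjusted p = 0.0181), without dim genes (0.0168), with arrays centred on 75th percentiles (0.0427) and without Ad-null replicate 3 (0.0376), and over all alternatives its adjusted p ran from 0.0168 to 0.156.

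The estimates of the other complex II genes lay above 0, with overlapping groups. Sdha, the flavoprotein that oxidises succinate, read 9.89, 9.82, 9.89 and 9.80 with Ad-null and 9.82, 9.91, 9.85 and 9.89 with Ad-Zip8 (change 0.02, 95% interval -0.13 to 0.16). The membrane anchors Sdhc and Sdhd had changes of 0.07 (-0.09 to 0.23) and 0.11 (-0.07 to 0.29). Whether Sdhb differed from the other 3 genes was not tested.

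Complex III had 6 of 7 genes below 0 (85.7%, against 54.1% of all genes), a median of -0.11 and no gene called. In limma 2 of the 7 were lower at an unadjusted p under 0.05, where 12.4% of all genes were. These 2 genes were Uqcrc1 and Uqcrc2, the core proteins on the matrix side. Uqcrc1 read 10.02, 10.09, 10.03 and 10.01 with Ad-null and 9.82, 9.87, 9.91 and 9.88 with Ad-Zip8 (change -0.17, SE 0.06, adjusted p = 0.146; 0.0340 to 0.299 over the alternatives). Uqcrc2 read 9.66, 9.68, 9.61 and 9.67 against 9.44, 9.55, 9.54 and 9.41 (change -0.17, SE 0.07, adjusted p = 0.154; 0.0465 to 0.316). Neither gene's groups overlapped, and both passed under the variance trend (adjusted p = 0.0340 and 0.0465) and without dim genes (0.0420 and 0.0489).

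Uqcrfs1, the Rieske iron-sulfur protein of complex III, had the highest estimate of the complex, 0.07 (95% interval -0.09 to 0.24). The accessory genes Uqcrb, Uqcrh, Uqcrq and Uqcr11 lay between -0.19 (Uqcrq, adjusted p = 0.262) and -0.05.

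Complex IV held the 1 called gene. Several of its subunits come as isoform pairs, in which a widely expressed gene has a relative used mainly in particular tissues. Cox6a2 encodes the isoform of subunit VIa of heart and skeletal muscle. It read 8.08, 7.78, 7.65 and 7.58 with Ad-null and 7.35, 7.35, 7.28 and 7.40 with Ad-Zip8. No arrays overlapped, Ad-null replicate 1 stood highest, and the mean fell 1.34-fold (log2 change -0.43, SE 0.11, adjusted p = 0.0313; 0.00873 to 0.0758 over the alternatives). The call was lost without Ad-null replicate 2 (adjusted p = 0.0720) and without Ad-Zip8 replicate 1, 2, 3 or 4 (0.0747, 0.0709, 0.0758 and 0.0585). The estimate stayed between -0.49 and -0.32 with any 1 array left out.

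Skeletal muscle markers were set beside Cox6a2. Of 8 markers, 1 fell, the muscle actin gene Acta1 (log2 change -0.50, SE 0.13, adjusted p = 0.0410), and 7 had estimates below 0. The summed linear level of the list was 411 to 480 on the Ad-null arrays and 351 to 410 on the Ad-Zip8 arrays. That sum includes Acta1, which had the highest mean of the list, and a sum without Acta1 was not computed. The Acta1 call was lost without any 1 array other than Ad-Zip8 replicate 2 (adjusted p 0.0556 to 0.111). Ckm, the muscle creatine kinase, had a change of -0.01, and Myh3, Myh8, Mylpf and Actn2 had means below the array medians. The part of muscle cells in the Cox6a2 result was not tested.

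Cox6a1, the widely expressed partner of Cox6a2, also lay lower on every Ad-Zip8 array. It read 12.70, 12.68, 12.60 and 12.69 with Ad-null and 12.46, 12.50, 12.42 and 12.47 with Ad-Zip8 (change -0.20, SE 0.06, adjusted p = 0.0803; 0.00483 to 0.171 over the alternatives), near the top of the scale. Its adjusted p was 0.00483 under the variance trend and 0.0186 without dim genes, both passing. Cox5b, a zinc-binding subunit on the matrix side, read 9.52, 9.54, 9.77 and 9.68 against 9.33, 9.45, 9.49 and 9.22, without overlap (change -0.25, SE 0.09, adjusted p = 0.113; 0.0352 to 0.564). It passed with the variance trend (0.0352) and without dim genes (0.0412), and its other, dimmer probe set had a change of 0.01.

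Among the other widely expressed genes of complex IV, Cox4i1, the largest nuclear subunit, had a change of -0.03 (95% interval -0.19 to 0.13), Cox8a one of -0.03 (-0.18 to 0.12) and Cox7a2 one of -0.04 (-0.22 to 0.14). Cox5a, Cox6b1 and the supercomplex factor gene Cox7a2l lay between -0.01 and 0.07. Cox7b and Cox7c had wide spreads, with changes of -0.09 and 0.13 and SEs of 0.18 and 0.20. Of the tissue-restricted genes, Cox8b, Cox8c and Cox7b2 had means below the array medians and changes of -0.02 to 0.01. Cox6b2, the testis form of subunit VIb, had the highest estimate of complex IV, 0.17 (adjusted p = 0.588), and Cox7a1, a muscle form, had one of -0.17.

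**Figure D3:**
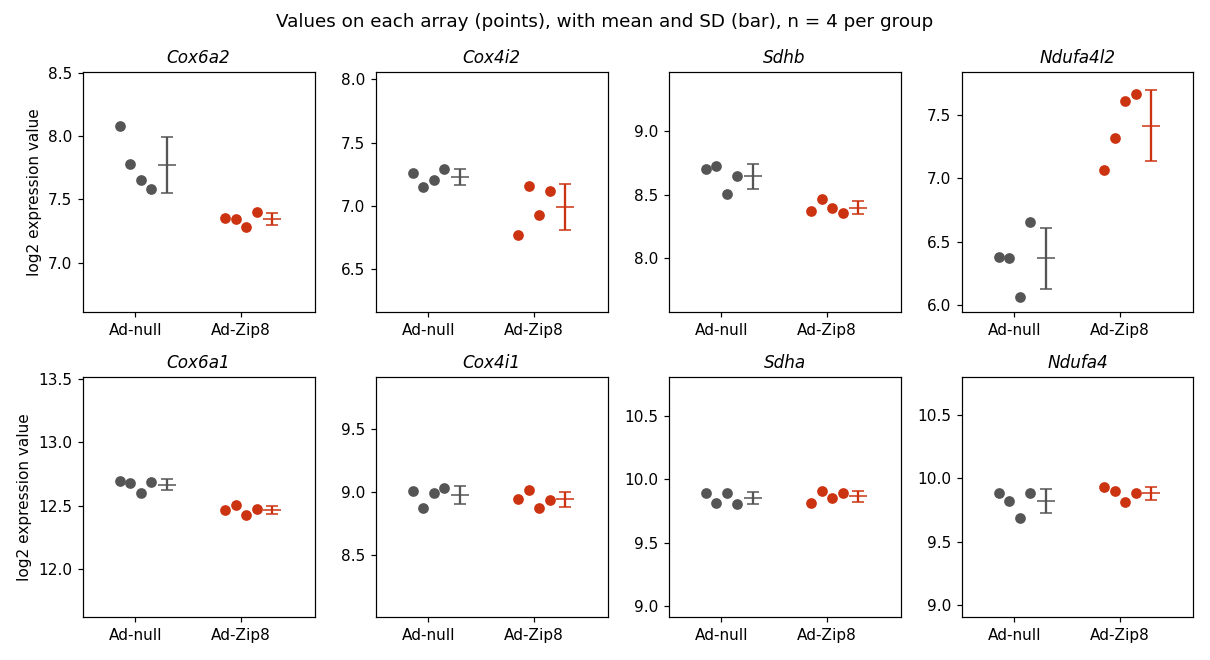
Log2 expression on each array (points) with group mean and SD (bars), n = 4 per group, every panel spanning the same log2 range. Cox6a2, Cox6a1 and Sdhb lie lower on all Ad-Zip8 arrays, Ndufa4l2 lies higher on all of them, and Sdha, Cox4i1 and Ndufa4 overlap between groups.

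Isoform pairs were compared within arrays, where a shift common to the whole array drops out, so this shows unequal change only. Cox4i2, the lung isoform of subunit IV and a known hypoxia-inducible gene, read 7.26, 7.15, 7.21 and 7.29 with Ad-null and 6.77, 7.16, 6.93 and 7.11 with Ad-Zip8 (change -0.24, SE 0.10, adjusted p = 0.174). Cox4i2 minus Cox4i1 was -1.75 ± 0.03 with Ad-null and -1.95 ± 0.16 with Ad-Zip8 (SD, n = 4 each), without overlap (exact two-sided permutation p = 0.0286, the smallest that 4 against 4 arrays can give). Adjusted over the 5 pairs the exact p was 0.0714. The exact permutation test gave p = 0.0857 for Cox6a2 minus Cox6a1 (difference -0.23), 0.400 for Cox7a1 minus Cox7a2 (-0.13) and 0.83 for Cox8b minus Cox8a (0.04).

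Ndufa4l2 gave the largest difference of the 5 pairs. Its relative Ndufa4 encodes a small subunit named for complex I, with which it is counted here, and now placed in complex IV, and Ndufa4l2, a known target of hypoxia-inducible factor, falls outside the symbol rule. Ndufa4l2 read 6.38, 6.37, 6.06 and 6.65 with Ad-null and 7.06, 7.32, 7.61 and 7.67 with Ad-Zip8. The mean rose 2.07-fold, a log2 change of 1.05 (SE 0.16, adjusted p = 0.00203). This call held in all 15 alternative fits. Ndufa4 had a change of 0.06 (95% interval -0.10 to 0.22). Their within-array difference was higher by 0.99 with Ad-Zip8, without overlap (exact permutation p = 0.0286, adjusted over the pairs 0.0714). For 2 of the 5 pairs the exact p was thus the smallest possible. At that p fewer than 3 of 5 pairs cannot pass after adjustment, so the adjusted values say nothing about the size of these differences.

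**Figure D4:**
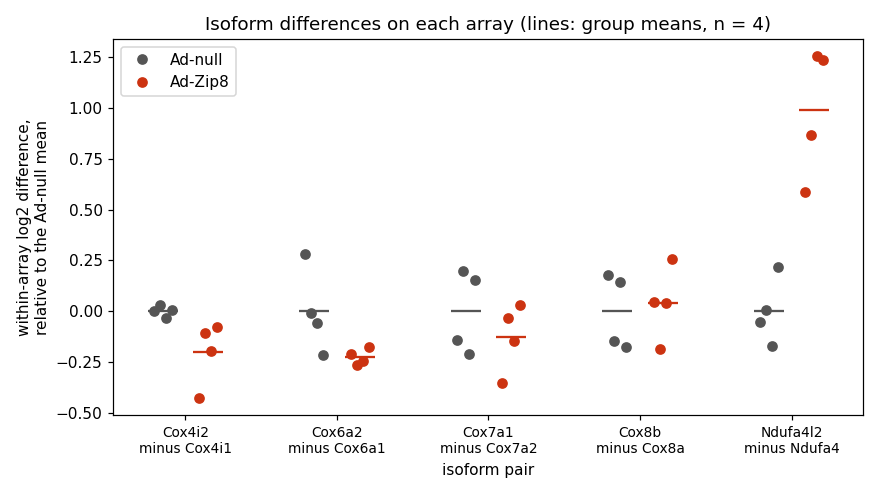
Within-array log2 difference between the genes of each isoform pair, relative to the Ad-null mean of that pair; points are arrays and lines are group means (n = 4 per group). Ndufa4l2 minus Ndufa4 is higher by 0.99 with Ad-Zip8, Cox4i2 minus Cox4i1 changes by -0.20, and the other 3 pairs overlap between groups.

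Complex V had 11 of 17 genes below 0 (64.7%, against 54.1% of all genes), a median of -0.05 and no gene called. In limma 1 of the 17 was lower at an unadjusted p under 0.05, where 12.4% of all genes were. Atp5b, the catalytic beta subunit, had a change of -0.05 (95% interval -0.20 to 0.11), and all 5 genes of the catalytic head lay between -0.11 and 0.00. Atp5a1, the alpha subunit, read 10.96, 10.95, 10.94 and 11.01 with Ad-null and 10.87, 10.93, 10.91 and 10.83 with Ad-Zip8 (change -0.08, adjusted p = 0.528), a small shift in which no arrays overlapped.

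The c ring, which turns as protons flow, is made of 1 mature protein encoded by 3 genes. Atp5g2 read 11.51, 11.48, 11.53 and 11.44 with Ad-null and 11.36, 11.36, 11.37 and 11.25 with Ad-Zip8, without overlap (change -0.15, SE 0.07, adjusted p = 0.198; 0.0419 with the variance trend, and 0.0419 to 0.384 over the alternatives). Atp5g1 had the lowest estimate of complex V, -0.27 with an SE of 0.19, and Atp5g3 had one of 0.02. The peripheral stalk genes Atp5pb, Atp5h, Atp5j and Atp5o lay between -0.10 and 0.05. The small membrane subunit genes Atp5j2, Atp5k, Atp5l, Atp5md and Atp5mpl lay between -0.22 (Atp5j2) and 0.15 (Atp5l), all with overlapping groups.

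Array by array, the median deviation of the 77 genes from their own means was 0.09, 0.01, 0.03 and 0.04 with Ad-null and -0.05, -0.02, -0.02 and -0.01 with Ad-Zip8. Every Ad-null array lay above every Ad-Zip8 array, and Ad-null replicate 1 stood highest. The nearest were Ad-null replicate 2 (0.011) and Ad-Zip8 replicate 4 (-0.011). The same median over all 22180 genes ran from -0.02 to 0.02, a range wider than that gap. On Ad-null replicate 2 the 77 genes (0.011) lay below all genes (0.021). On Ad-Zip8 replicate 3 they (-0.017) lay above all genes (-0.021). Relative to all genes, the groups thus overlapped. Without Ad-null replicate 1 the median log2 change of the 77 genes was -0.04.

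For transcripts of the mitochondrial genome, which encode remaining core subunits, limma called 0 of 10, and 0 had an unadjusted p under 0.05. Their median log2 change was -0.01, from -0.11 for ND6 to 0.02 for ND1, and all 10 intervals lay within 1.5-fold. ND4 read 13.57, 13.58, 13.62 and 13.56 with Ad-null and 13.55, 13.47, 13.58 and 13.53 with Ad-Zip8, close to the top of the scale.

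Of 47 measured assembly factors 1 fell and 0 rose, where 5.12% and 5.48% of all genes did. Their median was -0.09, and 32 (68.1%) lay below 0, against 54.1% of all genes. Ndufaf7, a methyltransferase that helps assemble complex I, read 7.76, 7.74, 7.81 and 7.77 with Ad-null and 7.49, 7.51, 7.52 and 7.59 with Ad-Zip8 (change -0.25, SE 0.06, adjusted p = 0.0356). That call was lost with the replicate block (adjusted p = 0.0633) and without any 1 of the 8 arrays (0.0550 to 0.0899). Cox15, an enzyme of heme a synthesis, had a change of -0.24 (adjusted p = 0.0803; 0.0230 to 0.192 over the alternatives), and Taco1, a translation activator of the mitochondrial COX1 message, one of -0.26 (adjusted p = 0.0918; 0.0310 to 0.507, and 0.0360 without Ad-Zip8 replicate 1). With the variance trend 4 of the 47 assembly factors were lower, where 7.31% of all genes were. Without dim genes 6 of those left were lower, where 14.7% of all genes were. How many of the 47 were left is not given here, so their share cannot be set beside 14.7%.

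Among 71 mitochondrial ribosomal protein genes 2 fell and 0 rose, where 5.12% and 5.48% of all genes did. Their median was -0.06, and 51 (71.8%) lay below 0, against 54.1% of all genes. Mrps16 fell by 0.40 on the log2 scale (adjusted p = 0.0151), and with the mean of its probe sets the adjusted p was 0.0586. Mrpl17 had a log2 change of -0.28 (adjusted p = 0.0329), a call lost with the replicate block (0.0757) and without any 1 of the 8 arrays (0.0534 to 0.0893). With the variance trend 5 of the 71 were lower, where 7.31% of all genes were. Without dim genes 5 of those left were lower, where 14.7% of all genes were. The number of the 71 that were left is not given here either.

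Of 17 regulators of mitochondrial gene expression limma called 0. At an unadjusted p under 0.05, 1 was higher and 1 lower, where 10.3% and 12.4% of all genes were. Ppargc1a, the coactivator PGC-1 alpha, read 4.54, 4.53, 4.35 and 4.04 with Ad-null and 5.07, 4.56, 4.55 and 4.77 with Ad-Zip8. All its Ad-Zip8 values were higher, but its level was below the array medians (change 0.37, SE 0.15, adjusted p = 0.157). Its relative Pprc1 had a change of -0.18 (adjusted p = 0.141; 0.0437 to 0.263 over the alternatives). Nrf1, Gabpa and Tfam, the last of which packages mitochondrial DNA, had changes of -0.05, 0.07 and -0.03.

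Of 22 genes of the citrate cycle and pyruvate entry 2 fell and 0 rose, where 5.12% and 5.48% of all genes did. Pdk2, a kinase that switches off pyruvate dehydrogenase, had a log2 change of -0.35 (adjusted p = 0.0289), and Idh2, the mitochondrial NADP-dependent isocitrate dehydrogenase, one of -0.29 (adjusted p = 0.0343). The Pdk2 call was lost without replicate 1, 2 or 3 of either group (0.0506 to 0.0732). The Idh2 call was lost with the replicate block (0.0682) and without any 1 array other than Ad-null replicate 3 (0.0613 to 0.0943). Pdk4, a related kinase, had an estimate of 0.54 (adjusted p = 0.107; 0.0484 to 0.255 over the alternatives, 0.0490 with the replicate block).

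Of 17 electron carrier genes and subunits outside the symbol rule Ndufa4l2 was the 1 that rose, 0 fell, and 14 lay below 0 (median -0.12). Cyc1, the cytochrome of complex III, had a change of -0.15 (adjusted p = 0.218), and Cycs, soluble cytochrome c, one of -0.06. Coq6, an enzyme of ubiquinone synthesis, had a change of -0.21 (adjusted p = 0.0776; 0.0187 to 0.192 over the alternatives). Of 9 uncoupling proteins, carriers and channels limma called 0, and 2 were lower at an unadjusted p under 0.05, where 12.4% of all genes were. These 2 were Ucp3 (-0.29, adjusted p = 0.0674; 0.0306 without Ad-Zip8 replicate 1, and 0.0306 to 0.153 over the alternatives) and the outer membrane channel gene Vdac2 (-0.25, adjusted p = 0.0924; 0.0274 to 0.213). Ucp3 had a mean below the array medians.

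Markers of other cell types were set beside these values. Of 6 adipocyte markers 2 rose, Fabp4 (log2 change 2.78, adjusted p = 8.50e-04) and Adipoq (0.34, adjusted p = 0.0443), while Ucp1, the uncoupling protein of brown fat, had a change of 0.04 and Pparg, the adipocyte regulator, one of -0.27 (adjusted p = 0.166). Their summed linear level was 220 to 259 with Ad-null and 318 to 403 with Ad-Zip8, and without Fabp4, left out after its value was seen, 210 to 233 and 221 to 243. Adipoq had a mean below the array medians, and its call was lost with the variance trend (adjusted p = 0.0796) and with arrays centred on medians (0.0556). Leaving out a single array also ended the Adipoq call for Ad-null replicates 1, 3 and 4 and for replicates 1, 2 and 3 of Ad-Zip8 (0.0601 to 0.119). Of 6 macrophage markers Cd68 rose (0.83, adjusted p = 0.00258). The other 5 did not pass, with changes from -0.17 (Ptprc) to 0.10 (Lyz2), and 3 of the 6 estimates lay below 0. The summed levels, 229 to 244 with Ad-null and 291 to 337 with Ad-Zip8, include Cd68, which had the highest mean of the list. A sum without Cd68 was not computed. Of 4 endothelial markers limma called 0, with 0 at an unadjusted p under 0.05 and summed levels of 106 to 130 and 119 to 126. The part of these cells in the respiratory chain values was not tested.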

How the data were processed

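The authors deposited 1 log2 value per probe set and array, and the submitters' processing notes name RMA (which corrects background, equalises distributions and summarises probes). Version and annotation: not given in the sources used here. Of 41345 probe sets, 23521 had 1 gene symbol, and 1814 with several were left out. The probe set with the highest mean stood for a gene (9 of the 77 genes had several). Cox6c, Ndufb2, Ndufb4, Ndufs6 and Uqcr10, found only on probe sets with several symbols, and the 3 blood markers were not analysed here. Cross-hybridisation from pseudogenes was not tested.

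Groups were compared with limma 3.58.1 in R 4.3.3 (two-sided, no covariates, checked on simulated data), which gave every adjusted p of a gene. The number of arrays limits the precision. Deviations of same-numbered arrays correlated at 0.11 to 0.37 and of others at -0.27 to 0.16, so a pairing, inferred from the data and not stated in the labels, was tried as a replicate block. Other alternatives were the variance trend, leaving out dim genes, centring, repeated quantile normalization, the mean of probe sets and leaving out each array.

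The 77 genes and the lists were chosen with earlier results of these data known. Genes named by rule were Slc39a8, called genes, the extremes of each complex, Sdh genes, isoform pairs, catalytic subunits and up to 3 genes per list by adjusted p. The remaining named genes, the grouping by role and the motifs were chosen after the values were seen.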

Additional observations from a re-analysis of the deposited data

Results flagged for a closer look

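These values are ones where 1 of the 4 arrays of a group lay far from the other 3, by Dixon's 95% criterion. This held for 15 of 230 groups tested (6.52%), and chance gives about 1 in 20. With Ad-null, replicate 2 was low for Atp5e (7.14 against 7.42 to 7.46), Atp5k (8.25 against 8.37 to 8.39) and Cox7a2 (8.54 against 8.80 to 8.83). Replicate 3 was low for Cox6a1 (12.60 against 12.68 to 12.70) and Ndufs7 (8.89 against 9.11 to 9.15) and high for Cox8c (4.29 against 4.13 to 4.15). Replicate 1 was high for Cox6b2 (6.04 against 5.87 to 5.90), and replicate 4 was low for the leukocyte gene Ptprc (3.23 against 3.42 to 3.46). With Ad-Zip8, replicate 4 was low for Atp5g2 (11.25 against 11.36 to 11.37) and high for Ndufa1 (8.29 against 8.09 to 8.12), Ndufa2 (8.83 against 8.73 to 8.74) and Sdhc (8.73 against 8.57 to 8.59). Replicate 1 was low for Atp5md (10.67 against 10.82 to 10.84), Idh2 (9.14 against 9.27 to 9.29) and Ptprc (2.83 against 3.31 to 3.37).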

How the results depend on the processing

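Over the 15 alternative fits, 0 respiratory chain genes were called higher. The count of lower genes, 1 as reported, was 7 of 77 with the variance trend (9.09%, against 7.31% of all genes). It was 7 of 71 without dim genes (9.86%, against 14.7%). With arrays centred on 75th percentiles it was 2 (2.6%, against 5.44%), and with quantile normalization repeated 2 (2.6%, against 5.23%). With 1 array left out in turn it was 0 to 2, where 3.19% to 4.16% of all genes were lower. It was 0 without any 1 of the 4 Ad-Zip8 arrays and 2 without Ad-null replicate 3. Without Ad-null replicate 2 the 1 lower gene was Atp5j2 (adjusted p = 0.0443) in place of Cox6a2. The cause of these differences was not tested. With the replicate block it was 1, again Cox6a2 (adjusted p = 0.0440). Among the named genes the block changed the calls of Ndufaf7, Mrpl17, Idh2 and Pdk4 and no other. The median log2 change of the 77 genes lay between -0.08 and -0.04, below that of all genes in each fit, and 52 to 62 genes lay below 0. Over 10 alternatives Ndufa4l2 minus Ndufa4 differed by 0.90 to 1.12 and Cox4i2 minus Cox4i1 by -0.25 to -0.13. The replicate block was not run for the isoform pairs. Over all genes 1136 were lower. Leaving out any 1 array lowered that count, to between 708 (without Ad-Zip8 replicate 1) and 923 (without Ad-null replicate 3). Low signal limits Cox8b, Cox8c, Cox7b2 and Ndufs5, whose means lay below the array medians.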
